A study of Mus musculus with 48 samples.

Results

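Control mouse liver at ZT20 was set against control liver at ZT16, which is the step from the middle to the late part of the dark phase. ZT, zeitgeber time, counts hours after lights-on, and the control mice lived on a steady cycle of 12 h light and 12 h dark. The comparison holds the 4 control libraries titled ZT20 and the 4 titled ZT16, so 8 of the 48 RNA sequencing libraries of the series, and the 14555 genes that passed a filter on low counts out of 54532 in the deposited count table. All mice were male C57BL/6 of wild-type (WT) genotype, aged 8 to 10 weeks, with no transgene or engineered allele in the labels. The control mice kept their schedule, while the mice of the other arm went through a single 6 h advance of the light cycle, a model of jet lag, and both arms were sampled at 4 h intervals on days 6 to 7 after the advance. The treatment field of the labels reads phase shift for control samples too, so the arm was taken from the sample titles. The series counts 24 animals per arm, as many as it has libraries per arm, but no label ties a library to an animal, and p-values therefore measure the spread between libraries.

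The circadian clock of liver cells is a loop of transcription factors. CLOCK, or its paralog NPAS2, pairs with BMAL1, the product of Arntl, and activates genes that carry E-box elements, among them the Per, Cry and REV-ERB genes. PER and CRY proteins then inhibit that activation. REV-ERB receptors, encoded by Nr1d1 and Nr1d2, repress and ROR receptors activate transcription at ROR elements (ROREs), as in the promoter of Arntl, and the PAR bZIP factors DBP, TEF and HLF compete with NFIL3 at D-boxes. Through these elements the liver clock sets daily rhythms of carbohydrate, lipid and heme metabolism, and in mice the dark phase is the time of activity and most feeding.

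The elements themselves stand near the start sites of several genes measured here. The windows below are shown because each holds a clock element close to the start site of a clock gene whose values follow. They come from RefSeq promoters of build GRCm38.p6 (the assembly also called mm10), are written from 5′ to 3′ along the strand of the gene, and carry the element in capitals. The windows of Arntl and Nfil3 show a RORE (TAGGTCA, on the reverse strand in Nfil3), that of Per3 shows 2 D-boxes (TTATGTAA), and those of Ciart and Cry1 show 3 E-boxes and 1 E-box (CACGTG).
Arntl, chr7:113207530-113207559, + strand: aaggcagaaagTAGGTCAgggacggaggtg
Nfil3, chr13:52981040-52981091, - strand: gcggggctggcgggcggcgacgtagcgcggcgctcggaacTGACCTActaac
Per3, chr4:151044796-151044890, - strand: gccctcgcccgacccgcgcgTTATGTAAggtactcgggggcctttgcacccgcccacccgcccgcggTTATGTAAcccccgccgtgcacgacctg
Ciart, chr3:95882253-95882358, - strand: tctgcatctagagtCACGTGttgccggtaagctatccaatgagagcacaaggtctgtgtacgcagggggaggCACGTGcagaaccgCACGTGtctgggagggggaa
Cry1, chr10:85185089-85185134, - strand: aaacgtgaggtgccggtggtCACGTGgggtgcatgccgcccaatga

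The 8 libraries held 16463189 to 17484910 counts each, so that a count of 0 allows up to 3 counts, or 0.172 to 0.182 CPM before the TMM factor. Such limits cover counting error only. CPM is the usual depth-scaled unit of counts, and the gene values below use the library total and a TMM factor. Transcripts of the mitochondrial genome took 12.1%, 7.20%, 7.05% and 7.13% of the counts in the ZT20 libraries and 6.65%, 6.75%, 6.84% and 6.93% in the ZT16 libraries. The ZT20 libraries averaged 8.38% ± 2.51 and the ZT16 libraries 6.79% ± 0.118 (SD, n = 4 each), a difference with a two-sided exact permutation p of 0.0286, which is the smallest that 4 against 4 can give. ZT20 replicate 1 stood apart with its share of 12.1%. It also had a chi-square averaged over genes of 61.3 to 84.7 against the other ZT20 libraries. Those had 23.8 to 37.9 among themselves. The chi-square scales libraries by their totals alone, so the high mitochondrial share of ZT20 replicate 1 enters it. All 111 genes called below stayed called, in the same direction, when the log2 of the mitochondrial share entered the fit as a covariate, a fit that called 825 genes in all. Of the 111, 60 stayed called without ZT20 replicate 1. Markers of hepatocytes were abundant in every library, with 14 of 14 tested and a summed level of 111750 to 168760 CPM at ZT20 and 107467 to 133206 CPM at ZT16.

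At ZT20 against ZT16, the called genes included parts of the clock itself, heat shock chaperones, and enzymes of glycogen and fatty acid metabolism. The activating clock genes Npas2 and Arntl rose, Per2, Per3 and Dbp fell, the chaperone genes Hspa1b, Hspa8 and Dnaja1 fell, and the liver glycogen synthase Gys2 fell while the glycogen-targeting subunit Ppp1r3c rose. In edgeR's quasi-likelihood test with Benjamini-Hochberg adjustment over all genes, which gives every adjusted p in this section, 111 of 14555 genes were called at an adjusted p under 0.05, or 0.763%. Of these, 74 were higher at ZT20 (0.508% of the genes tested) and 37 were lower (0.254%). Among the called genes, 29 were more than 2-fold higher and 10 more than 2-fold lower, and 106 were protein coding. The median log2 fold change was 0.81 over the higher genes, -0.67 over the lower genes and 0.00 over all genes tested. Of all genes tested, 7353 lay above 0 and 7202 below, and these shares stand beside the counts of each list below. In 106 of the 111 called genes the libraries of the groups did not overlap, against 10.4% of all genes tested, of which 5.28% had every ZT20 library above and 5.07% every ZT20 library below. The calls were made from the same 8 libraries, which fixes much of this, so the count of 106 is a description. The 5 called genes with overlapping groups, listed after their values were seen, were Acot11, Hoga1, Slc25a46, Ccni and Atf5. DESeq2 called 266 of the 9473 genes to which it gave an adjusted p (2.81%).

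The count of calls changed with the library left out, and each such fit also had fewer libraries to compare. It was 26 without ZT16 replicate 1, 32 without ZT16 replicate 2, 53 without ZT16 replicate 3, 47 without ZT20 replicate 2, 49 without ZT20 replicate 3 and 72 without ZT20 replicate 1. It was 114 without ZT16 replicate 4 and 127 without ZT20 replicate 4, and no called gene changed direction in these fits. Genes at an unadjusted p under 0.05 in edgeR's quasi-likelihood test numbered 1395 to 1945 in these fits, against 1727 with all libraries. A lost call therefore does not by itself show that the step came from the library left out. In all 8 fits that each left out 1 of the 8 libraries, 20 genes stayed called. The libraries of a group also differed among themselves in how far they lay from the other group. Among the 111 called genes, ZT20 replicate 4 was the ZT20 library nearest to the ZT16 group in 54 genes (48.6%), against 33.6% of all genes tested. Likewise ZT16 replicate 4 was the ZT16 library nearest to the ZT20 group in 67 of the 111 genes (60.4%), against 30.9% of all genes tested.

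Of the 5 clock activators tested, 3 were called higher and 0 lower, all 5 lay above 0 in log2 fold change, and their median was 0.70. Npas2 (chr1:39193731-39363236, + strand) encodes the partner of BMAL1 that can stand in for CLOCK. It had 3.34, 2.20, 0.937 and 6.71 CPM in the ZT20 libraries, against 0.115, 0, 0.0577 and 0.0593 CPM in the ZT16 libraries. Every ZT16 library lay below the level that a count of 0 allows, and every ZT20 library lay above it. Summed over libraries, Npas2 had 217 counts at ZT20 and 4 at ZT16, a ratio of 54.6 with an exact binomial 95% interval of 21.0 to 202 for counting error. The fitted log2 fold change was 5.67 (SE 0.77, adjusted p = 8.66e-05), a size that depends on how the near-zero ZT16 level is treated, and the call was kept in all 8 fits without a library.

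Arntl (chr7:113207465-113314126, + strand), which encodes BMAL1 and whose RORE is printed above, had 25.7, 25.0, 30.8 and 30.1 CPM in the ZT20 libraries, against 6.26, 7.84, 9.92 and 17.0 CPM in the ZT16 libraries. The groups did not overlap, and ZT16 replicate 4 was the highest of its group. The log2 fold change was 1.44 (SE 0.29, adjusted p = 0.00683), and the call was lost without ZT16 replicate 1 (adjusted p = 0.0678) and without ZT16 replicate 2 (0.0558). Rora, a receptor that activates Arntl at ROREs, had 114, 92.5, 114 and 96.0 CPM at ZT20, against 54.4, 64.2, 66.4 and 71.0 CPM at ZT16. Its log2 fold change was 0.70 (SE 0.16, adjusted p = 0.0205), and the call was lost without ZT20 replicates 1 and 3 and without ZT16 replicates 1, 2 and 3 (adjusted p = 0.0536 to 0.119). Clock, the partner of BMAL1, had a log2 fold change of 0.41 (adjusted p = 0.247) with overlapping groups.

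Of the 10 clock repressors tested, 0 were called higher and 2 lower, 8 lay below 0, and the median log2 fold change was -0.66. Per2 (chr1:91415982-91459324, - strand), a core repressor of CLOCK and BMAL1, had 26.6, 15.8, 19.5 and 29.4 CPM in the ZT20 libraries, against 65.0, 67.0, 78.7 and 68.5 CPM in the ZT16 libraries. All 4 ZT20 libraries were below all 4 ZT16 libraries, and the log2 fold change was -1.61 (SE 0.38, adjusted p = 0.0257). Per3, the third Period gene, which carries the D-boxes shown above, had 10.5, 7.18, 12.9 and 7.18 CPM at ZT20, against 24.7, 26.7, 22.0 and 18.0 CPM at ZT16. Its groups did not overlap either, and its log2 fold change was -1.27 (SE 0.31, adjusted p = 0.0356). The span of Per3 (mean 16.1 CPM) overlaps that of Camta1 (3.63 CPM) on the same strand. Without ZT20 replicate 1 or 2 or ZT16 replicate 1, 2 or 3 both of these calls were lost, as was that of Per2 without ZT20 replicate 3 and that of Per3 without ZT20 replicate 4 (adjusted p = 0.0535 to 0.118 for Per2 and 0.0739 to 0.136 for Per3). Per1, by contrast, had overlapping groups with 13.0, 14.5, 15.1 and 19.5 CPM at ZT20, against 12.0, 17.7, 21.6 and 19.8 CPM at ZT16, and a log2 fold change of -0.19 (SE 0.46, adjusted p = 0.946).

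The other repressors were not called. Cry1, a cryptochrome whose E-box is printed above, had 57.1, 58.4, 64.8 and 57.4 CPM at ZT20, against 26.6, 29.6, 34.6 and 44.2 CPM at ZT16, so its groups did not overlap while the log2 fold change of 0.82 (SE 0.27) had an adjusted p of 0.143. Ciart, a repressor of CLOCK and BMAL1 with the 3 E-boxes shown above, had 1.499, 0.637, 1.23 and 1.18 CPM at ZT20, against 4.88, 3.22, 4.04 and 3.62 CPM at ZT16, with a log2 fold change of -1.80 (SE 0.50, adjusted p = 0.0769). Nr1d1, which encodes REV-ERB alpha, had 2.32, 1.68, 2.34 and 0.530 CPM at ZT20, against 8.27, 8.06, 6.00 and 2.85 CPM at ZT16, with a log2 fold change of -1.88 (SE 0.53, adjusted p = 0.0812). Ciart and Nr1d1 were thus low at both times, with separate groups, and Nr1d1 overlaps Thra on the other strand, so that reads counted without strand could not be assigned between them. Nr1d2, the second REV-ERB gene, had a log2 fold change of -0.87 (adjusted p = 0.186) with separate groups. Cry2, Bhlhe40 and Bhlhe41, which encode a cryptochrome and the repressors DEC1 and DEC2, had values of 0.14, -0.20 and -0.45 with overlapping groups.

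Of the 4 genes for PAR bZIP factors and Nfil3, 1 was called, and the median log2 fold change was -0.39. Dbp (chr7:45705088-45710203, + strand), the factor of this family with the largest known daily swing in liver, had 4.36, 2.66, 3.22 and 2.65 CPM in the ZT20 libraries, against 27.6, 18.5, 11.5 and 9.37 CPM in the ZT16 libraries. Every ZT20 library was below every ZT16 library, and the ZT16 libraries spanned a wide range. The log2 fold change was -2.38 (SE 0.48, adjusted p = 0.00858), and the call was lost without ZT16 replicate 1 (adjusted p = 0.0682). Dbp overlaps Sphk2 on the other strand. Tef had 136, 108, 129 and 77.6 CPM at ZT20, against 191, 163, 155 and 151 CPM at ZT16, separate groups with a log2 fold change of -0.55 (adjusted p = 0.143). Hlf had a log2 fold change of -0.23 (adjusted p = 0.581), and Nfil3, the repressor at D-boxes, had 0.77 (adjusted p = 0.237), both with overlapping groups. Across the activators, repressors and PAR bZIP lists, groups were separate in 4 of 5, 6 of 10 and 2 of 4 genes, against 10.4% of all genes tested.

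**Figure D1:**
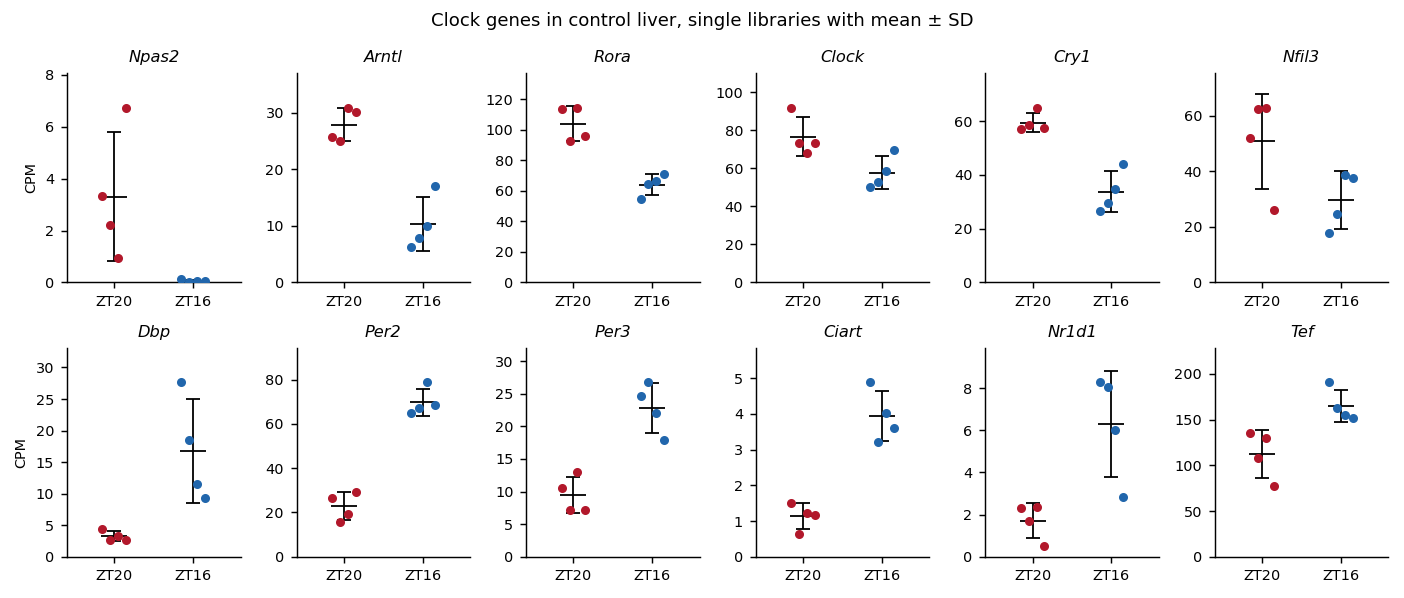
CPM of 12 clock genes in single control libraries at ZT20 (red) and ZT16 (blue), with the mean and SD of the 4 libraries as bars and every axis starting at 0. Npas2, Arntl and Rora were called higher at ZT20 and Dbp, Per2 and Per3 lower, while Nfil3 and Clock overlapped between times.

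Among 17 genes known to follow the clock in liver, 1 was called higher and 1 lower, against 0.508% and 0.254% of all genes tested. The median log2 fold change was -0.41, and 9 had separate groups, against 10.4% of all genes tested. Cdkn1a, which encodes the cell cycle inhibitor p21, had 3.27, 6.78, 5.50 and 36.8 CPM at ZT20, against 1.38, 2.00, 2.31 and 1.84 CPM at ZT16. All ZT20 libraries were above all ZT16 libraries, but ZT20 replicate 4 was far above the other ZT20 libraries. The log2 fold change was 2.80 (SE 0.64, adjusted p = 0.0246). Without ZT20 replicate 4 it was 1.46 (adjusted p = 0.216), and the call was also lost without each of the 4 ZT16 replicates in turn (adjusted p = 0.0554 to 0.117). Alas1, the enzyme that starts heme synthesis, had 364, 259, 154 and 126 CPM at ZT20, against 1226, 981, 950 and 606 CPM at ZT16, with a log2 fold change of -2.06 (SE 0.66, adjusted p = 0.137). Usp2, a ubiquitin protease, and Wee1, a kinase that holds back mitosis, had log2 fold changes of -0.95 (adjusted p = 0.115) and -1.05 (adjusted p = 0.0963). In all of Alas1, Usp2 and Wee1 the groups were separate, with ZT20 the lower, and none passed the threshold. Of 16 kinases and ubiquitin ligases that act on clock proteins, 0 were called, with a median of 0.12.

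Clpx (chr9:65294260-65330658, + strand), the unfoldase of a mitochondrial protease complex that also acts on ALAS1, rose. It had 277, 358, 315 and 329 CPM at ZT20, against 90.4, 91.8, 112 and 133 CPM at ZT16, with clearly separate groups. The log2 fold change was 1.58 (SE 0.25, adjusted p = 0.000534), and the call was kept in all 8 fits without a library and in each of the other alternatives tried.

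Of 21 heat shock and chaperone genes tested, 3 were called lower and 0 higher, 18 lay below 0, and in 11 all 4 ZT20 libraries lay below all 4 ZT16 libraries, which held for 5.07% of all genes tested. The median log2 fold change of the list was -0.35, and -0.57 without ZT20 replicate 1. Hspa8 (chr9:40800984-40810087, + strand), the constitutive HSP70 chaperone of the cytosol, had 935, 688, 598 and 529 CPM in the ZT20 libraries, against 2254, 2258, 2873 and 1987 CPM in the ZT16 libraries. Its log2 fold change was -1.77 (SE 0.32, adjusted p = 0.00408), and the call was kept in all 8 fits without a library. Hspa1b, a stress-inducible HSP70, had 3.13, 7.53, 1.87 and 7.24 CPM at ZT20, against 52.5, 49.4, 76.8 and 11.0 CPM at ZT16. The groups did not overlap, with ZT16 replicate 4 the nearest to ZT20, and the log2 fold change was -3.25 (SE 0.64, adjusted p = 0.00683), a call kept in all 8 fits without a library. Dnaja1, an HSP40 co-chaperone of HSP70, had 291, 224, 229 and 229 CPM at ZT20, against 501, 532, 620 and 532 CPM at ZT16, with a log2 fold change of -1.17 (SE 0.25, adjusted p = 0.011), and the call was lost without ZT20 replicate 2 (adjusted p = 0.0516).

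Dnajb1, another HSP40 gene, had 17.4, 24.9, 18.7 and 23.7 CPM at ZT20, against 43.8, 41.0, 47.8 and 37.2 CPM at ZT16, and its log2 fold change of -1.002 had an adjusted p of 0.101. Hspa1b has a near-identical neighbour, Hspa1a, and Hspa8 has pseudogene copies, so the split of reads between copies is uncertain. Of 24 genes of the unfolded protein response, which holds the chaperones of the endoplasmic reticulum, 0 were called, with a median of 0.06, or 0.01 without ZT20 replicate 1. Of 3 cold-inducible RNA-binding genes, 0 were called, with a median of 0.59, or 0.78 without ZT20 replicate 1. In this list 2 genes lay above 0, and the 1 below was Rbm3, with a log2 fold change of -0.42 (adjusted p = 0.4).

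Of 12 glycogen genes, 1 was called higher, 1 was called lower and 10 were not called, with a median of -0.08. Gys2 (chr6:142422613-142473109, - strand), the glycogen synthase of liver, had 200, 119, 143 and 122 CPM at ZT20, against 325, 329, 334 and 242 CPM at ZT16. Every ZT20 library was below every ZT16 library, and the log2 fold change was -1.07 (SE 0.22, adjusted p = 0.00858), a call lost without ZT20 replicate 2 (adjusted p = 0.0516). Ppp1r3c, a subunit that brings protein phosphatase 1 to glycogen, had 135, 102, 142 and 201 CPM at ZT20, against 47.6, 42.1, 45.7 and 85.7 CPM at ZT16. Its groups were separate the other way, and its log2 fold change was 1.39 (SE 0.32, adjusted p = 0.0247). That call was lost without ZT20 replicates 3 and 4 and without ZT16 replicates 1, 2 and 3, each left out alone (adjusted p = 0.0577 to 0.121).

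Of 13 gluconeogenesis genes, 1 was called higher and 1 lower, with a median log2 fold change of 0.04. Slc37a4, the transporter that carries glucose 6-phosphate into the endoplasmic reticulum, had 207, 130, 182 and 140 CPM at ZT20, against 298, 259, 236 and 249 CPM at ZT16, with a log2 fold change of -0.66 (SE 0.16, adjusted p = 0.0356). Foxo1, a transcription factor of the fasting response, had 41.8, 40.8, 41.3 and 30.3 CPM at ZT20, against 25.9, 26.2, 24.2 and 27.5 CPM at ZT16, with a log2 fold change of 0.57 (SE 0.14, adjusted p = 0.0367). Groups were separate in both genes, with ZT20 replicate 4 the lowest ZT20 library for Foxo1. Each of these calls was kept in 2 of the 8 fits without a library. Slc37a4 was kept without ZT20 replicate 1 and without ZT16 replicate 4, with an adjusted p of up to 0.162 otherwise. Foxo1 was kept without ZT20 replicate 4 and without ZT16 replicate 4, with an adjusted p of up to 0.148 otherwise.

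Pck1, the enzyme that commits carbon to gluconeogenesis, had 1486, 3282, 3767 and 1489 CPM at ZT20, against 656, 973, 778 and 728 CPM at ZT16. The ZT20 libraries fell into a low pair and a high pair, all above ZT16, and the log2 fold change of 1.68 (SE 0.44) had an adjusted p of 0.0533, and of 0.048 without ZT20 replicate 1. Of 16 glycolysis genes, 0 were called and 15 lay below 0, with a median of -0.11. Pklr, the liver pyruvate kinase, had 202, 157, 142 and 181 CPM at ZT20, against 299, 296, 235 and 239 CPM at ZT16. Its groups were separate, and its log2 fold change of -0.65 (adjusted p = 0.206) did not pass the threshold. Gapdh counts were too scattered to use, with 77.3 CPM in 1 ZT16 library and 2.02 CPM in another, and the gene has many pseudogene copies.

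**Figure D2:**
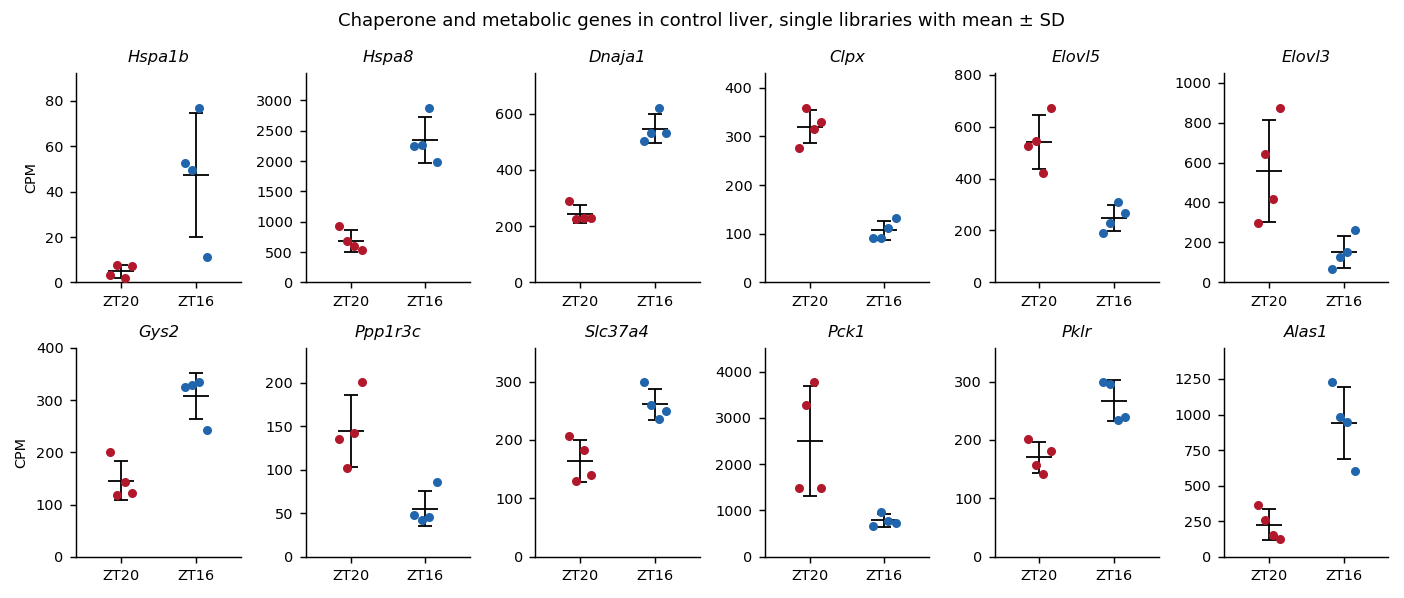
CPM of 12 chaperone and metabolic genes in single control libraries at ZT20 (red) and ZT16 (blue), with the mean and SD of the 4 libraries as bars and every axis starting at 0. Groups were separate in each of the 12 genes, of which Pck1, Pklr and Alas1 did not pass the threshold.

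In lipid metabolism, 2 fatty acid elongases, Elovl5 and Elovl3, were called higher at ZT20. Elovl5, which elongates polyunsaturated fatty acids, had 525, 545, 421 and 671 CPM at ZT20, against 192, 230, 309 and 266 CPM at ZT16. Its groups were separate, and its log2 fold change was 1.12 (SE 0.22, adjusted p = 0.00558), lost without ZT16 replicate 1 (adjusted p = 0.0547). Elovl3 (chr19:46131897-46135307, + strand), an elongase of saturated very long chain fatty acids, had 298, 645, 415 and 872 CPM at ZT20, against 66.6, 129, 150 and 264 CPM at ZT16. Its libraries spread widely within both times without overlap, and the log2 fold change of 1.87 (SE 0.48) had an adjusted p of 0.0496, which stayed under 0.05 only without ZT20 replicate 1 or without ZT16 replicate 4 and reached 0.211 otherwise. Of 22 genes of fatty acid and triglyceride synthesis, 1 was called higher and 0 lower, with a median of 0.02.

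Of 25 genes of cholesterol synthesis and SREBP2 targets, 0 were called, with a median of -0.03. Insig1, which holds SREBP in the endoplasmic reticulum, had a log2 fold change of -0.76 (adjusted p = 0.36). Of 25 genes of fatty acid oxidation and PPARA targets, 0 were called, with a median of 0.07, or 0.01 without ZT20 replicate 1. That list does not hold Crot, the peroxisomal carnitine octanoyltransferase, which was called higher (log2 fold change 1.13, adjusted p = 0.0199). Crot is named after its values were seen. Angptl4, an inhibitor of lipoprotein lipase, had 61.6, 107, 145 and 46.9 CPM at ZT20, against 32.0, 37.6, 35.7 and 35.7 CPM at ZT16, and Pdk4, the kinase that shuts off pyruvate dehydrogenase, had 42.9, 19.2, 44.5 and 23.3 CPM at ZT20, against 9.48, 12.2, 18.2 and 14.6 CPM at ZT16. Every ZT20 library was above every ZT16 library for both, but neither was called, with log2 fold changes of 1.35 (adjusted p = 0.198) and 1.25 (adjusted p = 0.276). Of 23 genes of phospholipid and sphingolipid synthesis, Etnk2, an ethanolamine kinase, was the 1 called. It had 277, 294, 298 and 304 CPM at ZT20, against 447, 409, 426 and 434 CPM at ZT16, with a log2 fold change of -0.55 (SE 0.14, adjusted p = 0.0367), and the call was lost in all 8 fits without a library (adjusted p = 0.0521 to 0.124).

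Of 16 genes of bile acid synthesis and the FXR axis, 0 were called, with a median log2 fold change of 0.10. Nr0b2, which encodes the repressor SHP, had 28.9, 22.9, 57.5 and 37.9 CPM at ZT20, against 10.8, 14.8, 12.3 and 15.9 CPM at ZT16, and Cyp8b1, the enzyme that makes cholic acid, had 525, 695, 624 and 609 CPM at ZT20, against 327, 245, 370 and 395 CPM at ZT16. Both had separate groups, with log2 fold changes of 1.45 (adjusted p = 0.128) and 0.88 (adjusted p = 0.177). The bile salt export pump Abcb11, in a list of 15 transporters with 0 called, had a log2 fold change of 0.66 (adjusted p = 0.101).

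In the serine, glycine and one-carbon list, 1 of 26 genes was called. Amt, the aminomethyltransferase of the glycine cleavage system, had 45.3, 57.6, 52.8 and 59.2 CPM at ZT20, against 27.1, 28.8, 29.7 and 36.6 CPM at ZT16. Its groups were separate, and its log2 fold change was 0.82 (SE 0.15, adjusted p = 0.00491), a call kept in all 8 fits without a library. Of 13 urea cycle and arginine genes and 23 genes of amino acid breakdown, 0 were called, with medians of 0.05 and 0.00. Cbs and Cth, the enzymes that turn homocysteine into cysteine, had log2 fold changes of 0.58 (adjusted p = 0.0662) and 0.63 (adjusted p = 0.143).

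Among 19 genes of insulin, IGF and growth hormone signalling, 2 were called higher and 0 lower, namely Foxo1 above and Stat5b, the transcription factor downstream of the growth hormone receptor. Stat5b had 88.1, 114, 109 and 89.5 CPM at ZT20, against 64.5, 52.6, 50.6 and 52.2 CPM at ZT16, with a log2 fold change of 0.86 (SE 0.22, adjusted p = 0.0464), kept only without ZT20 replicate 4 and with an adjusted p of up to 0.158 in the 7 other fits without a library. Of 19 glucocorticoid receptor targets, 1 was called, namely Cdkn1a as given above, and the median of the list was 0.21. Fgg, the gamma chain of fibrinogen, had 2401, 2538, 2269 and 2055 CPM at ZT20, against 1428, 1407, 1643 and 1643 CPM at ZT16, with a log2 fold change of 0.60 (SE 0.14, adjusted p = 0.0256). It was the 1 called gene of 24 acute phase genes, whose median was 0.32, with 20 of 24 above 0, and its call was lost without ZT20 replicates 1, 2 and 3 and ZT16 replicates 1 and 2 (adjusted p = 0.0599 to 0.117).

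Psmd11, a subunit of the proteasome lid, had 99.4, 104, 111 and 98.2 CPM at ZT20, against 71.5, 69.7, 77.5 and 85.5 CPM at ZT16, with a log2 fold change of 0.44 (SE 0.09, adjusted p = 0.0101), and it was the 1 called gene of 38 proteasome genes, whose median was 0.00. Ubtf, the factor that opens ribosomal DNA for RNA polymerase I, had 33.0, 43.9, 37.1 and 48.2 CPM at ZT20, against 61.3, 48.3, 55.7 and 53.8 CPM at ZT16, with a log2 fold change of -0.43 (SE 0.11, adjusted p = 0.0441). It was the 1 called gene of 36 ribosome biogenesis genes, of which 32 lay below 0 with a median of -0.16. Atf5, a transcription factor of the integrated and mitochondrial stress responses, had 114, 243, 166 and 233 CPM at ZT20, against 74.9, 72.8, 104 and 141 CPM at ZT16. Its groups overlapped, its log2 fold change was 0.94 (SE 0.21, adjusted p = 0.0157), and it overlaps Nup62 on the other strand.

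Gclm, the modifier subunit of the enzyme that starts glutathione synthesis, had 340, 285, 317 and 261 CPM at ZT20, against 219, 221, 239 and 244 CPM at ZT16, with a log2 fold change of 0.38 (SE 0.09, adjusted p = 0.0341). It was the 1 called gene of 19 NRF2 and antioxidant genes, as Atf5 was of 15 integrated stress response genes. Of the fits without a library, the call of Psmd11 was kept in 5 of 8, that of Atf5 in 4, that of Gclm in 2 and that of Ubtf in 1, and the highest adjusted p was 0.0751 for Psmd11, 0.114 for Atf5, 0.16 for Gclm and 0.207 for Ubtf. Psmd11 was lost without ZT20 replicate 3 and ZT16 replicates 1 and 2, and Atf5 without ZT20 replicates 2 and 4 and ZT16 replicates 1 and 2. Gclm was kept only without ZT20 replicate 4 or ZT16 replicate 4, and Ubtf only without ZT20 replicate 4.

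Several of the largest steps belonged to genes outside these lists. Camk1d, a calmodulin-dependent kinase, had 110, 129, 100 and 136 CPM at ZT20, against 37.1, 28.2, 37.9 and 52.7 CPM at ZT16, with a log2 fold change of 1.61 (SE 0.34, adjusted p = 0.0121). Trp53inp1, a p53-induced gene with roles in autophagy, had 104, 109, 102 and 69.96 CPM at ZT20, against 24.8, 41.1, 37.9 and 46.7 CPM at ZT16, with a log2 fold change of 1.36 (SE 0.28, adjusted p = 0.00858). Loxl4, an enzyme that crosslinks collagen, had 2.52, 3.59, 4.68 and 19.5 CPM at ZT20, against 1.149, 1.17, 1.79 and 1.96 CPM at ZT16. Groups were separate in all of these, but Loxl4 leaned on ZT20 replicate 4, without which its log2 fold change was 1.25 (adjusted p = 0.106), against 2.32 (SE 0.46, adjusted p = 0.00674) with all libraries.

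Of the fits without a library, that of Loxl4 without ZT16 replicate 1 (adjusted p = 0.0527), that of Trp53inp1 without ZT16 replicate 1 (0.0866) and those of Camk1d without ZT16 replicates 1 and 2 (0.0678 and 0.0796) did not pass either. The other higher genes among the 12 with the largest separate steps were Ypel2, Mpzl1 and Rnf144a, the last a ubiquitin ligase. Their log2 fold changes were 1.47 (adjusted p = 0.04999), 1.43 (adjusted p = 0.0338) and 1.38 (adjusted p = 0.0356), and each was kept in at most 2 of the 8 fits without a library, with adjusted p of up to 0.196 for Ypel2, 0.155 for Mpzl1 and 0.146 for Rnf144a. Ypel2 was kept only without ZT20 replicate 4, Rnf144a only without ZT20 replicate 2, and Mpzl1 only without ZT20 replicate 2 or 4.

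On the lower side, Fam102a had 38.8, 36.1, 30.5 and 37.0 CPM at ZT20, against 71.6, 69.7, 75.7 and 55.6 CPM at ZT16, with a log2 fold change of -0.94 (SE 0.18, adjusted p = 0.00491) that was kept in all 8 fits without a library. Alpl, the tissue-nonspecific alkaline phosphatase, had 15.3, 12.7, 16.8 and 16.9 CPM at ZT20, against 33.8, 33.8, 29.7 and 23.6 CPM at ZT16, with a log2 fold change of -0.97 (SE 0.21, adjusted p = 0.0157), lost without ZT20 replicate 2 and ZT16 replicates 1 and 2 (adjusted p = 0.0751 to 0.0973). Xirp1, an actin-binding protein known from striated muscle, was low, with 0.613, 0.695, 0.410 and 1.65 CPM at ZT20, against 5.34, 3.61, 2.88 and 1.78 CPM at ZT16. Its groups were separate by a small margin, and its log2 fold change of -2.003 (SE 0.47, adjusted p = 0.0256) was kept only without ZT20 replicate 4 and without ZT16 replicates 3 and 4, with an adjusted p of up to 0.152 otherwise. The span of Xirp1 (mean 2.12 CPM) overlaps that of Cx3cr1 (0.533 CPM) on the same strand. Sipa1l2 and Ccdc137 completed the 12 lower genes, with log2 fold changes of -0.94 (adjusted p = 0.0328) and -0.91 (adjusted p = 0.0367). Sipa1l2 was kept in 3 and Ccdc137 in 1 of the 8 fits without a library, with adjusted p of up to 0.207 and 0.164. Sipa1l2 was kept only without ZT20 replicate 2, ZT16 replicate 3 or ZT16 replicate 4, and Ccdc137 only without ZT20 replicate 4.

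Other gene lists held no called gene. These were the 79 ribosomal protein genes with a median log2 fold change of -0.08, the 25 translation factors with -0.01, the 30 autophagy and lysosome genes with 0.12, the 79 nuclear respiratory chain subunits with -0.07, the 20 citric acid cycle genes with -0.02, the 20 lipoprotein genes with 0.07, the 18 lipid droplet genes with -0.20, the 33 coagulation and complement genes with 0.08, the 18 iron handling genes with 0.03 and the 21 major urinary protein genes with -0.14. Of the drug metabolism lists, 23 cytochrome P450 genes had a median of 0.07, 27 conjugating enzymes -0.02 and 9 xenobiotic receptor genes -0.10. The 12 NAD genes had a median of 0.02, the 14 hepatokines 0.12, the 21 cell cycle and mitosis genes -0.22, the 19 pericentral hepatocyte genes -0.08 and the 14 periportal hepatocyte genes 0.08. Without ZT20 replicate 1 the median was -0.03 for the P450 genes, -0.13 for the conjugating enzymes, -0.23 for the pericentral genes, 0.03 for the hepatokines, -0.01 for the ribosomal proteins, -0.01 for the respiratory chain subunits, -0.05 for the major urinary proteins, 0.07 for the NAD genes and -0.11 for the cell cycle genes. The NAD list does not hold Nadsyn1, the NAD synthetase, which was called lower (log2 fold change -0.60, adjusted p = 0.00858) and is named after its values were seen. Among 15 genes of clock-gated cell cycle control and checkpoints Cdkn1a was the 1 called. Of 23 immediate early genes 0 were called, although Egr1, an early response transcription factor, had 18.3, 8.63, 66.3 and 11.2 CPM at ZT20, against 2.76, 3.11, 2.77 and 2.37 CPM at ZT16, with every ZT20 library higher and a log2 fold change of 3.24 (SE 0.90, adjusted p = 0.0782). The median of the immediate early genes was 0.14, or 0.35 without ZT20 replicate 1.

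**Figure D3:**
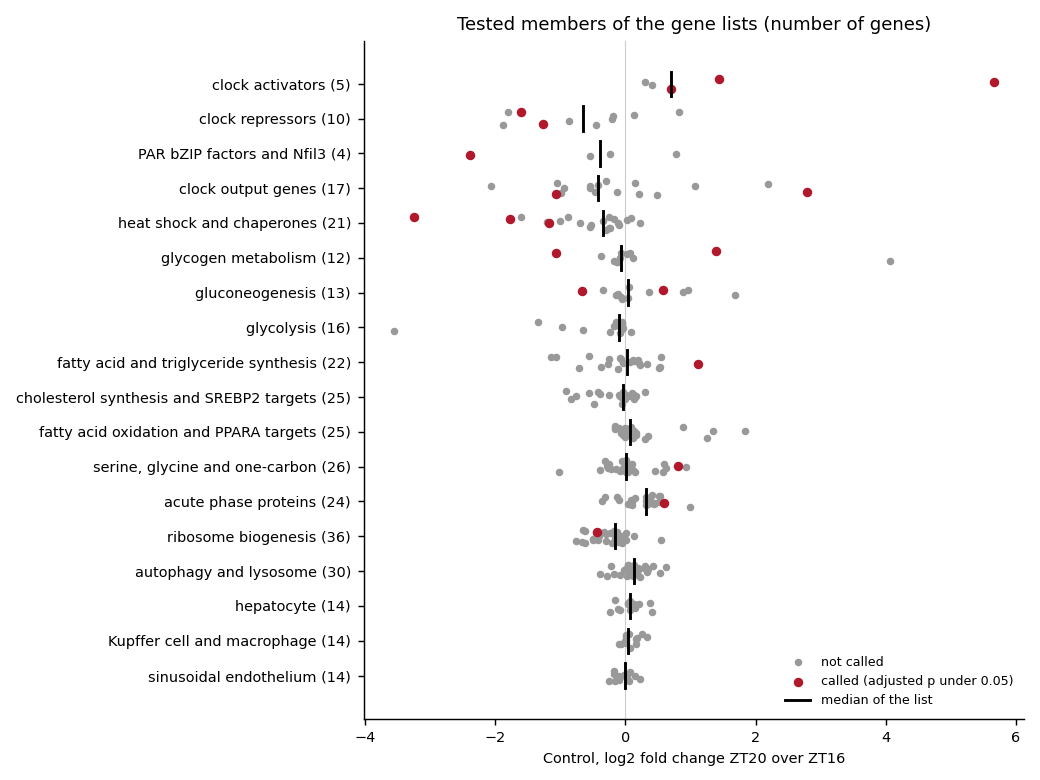
Log2 fold change, ZT20 over ZT16 in control liver, of the tested members of 18 gene lists, with called genes in red, other genes in grey, the median of each list as a black bar, and the number of genes in parentheses. The clock activators had a median of 0.70 and the clock repressors of -0.66, while the 25 cholesterol synthesis genes and the lists of hepatocyte, Kupffer cell and sinusoidal endothelium markers held no called gene.

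Markers of other cell types were read for the whole lists. Of the 12 cell type lists, 0 held a called gene. Summed Kupffer cell and macrophage markers (14 of 14 tested) ran from 325 to 612 CPM at ZT20 and from 273 to 545 CPM at ZT16, and sinusoidal endothelial markers (14 of 14) from 425 to 597 CPM at ZT20 and from 400 to 634 CPM at ZT16. In both lists ZT20 replicate 1 was the lowest ZT20 library and ZT16 replicate 4 the lowest ZT16 library. Stellate cell and fibroblast markers (15 of 15) summed to 417 to 548 CPM at ZT20 and 397 to 458 CPM at ZT16. Markers of T and NK cells (13 of 14 tested) summed to 8.02 to 12.5 CPM at ZT20 and 5.39 to 8.11 CPM at ZT16, with a median log2 fold change of 0.57 and 11 of 13 above 0. Those of B and plasma cells (10 of 11) summed to 92.0 to 190 CPM at ZT20 and 62.4 to 117 CPM at ZT16, with 10 of 10 above 0. In bulk tissue a change in the number of cells of a type and a change of RNA per cell cannot be told apart, and the part of these cells in the results was not tested.

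Cholangiocyte markers summed to 40.4 to 91.4 CPM at ZT20 and 44.4 to 64.0 CPM at ZT16, neutrophil markers to 4.50 to 6.97 CPM at ZT20 and 3.79 to 4.96 CPM at ZT16 (Ly6g at 0 in all 8 libraries), and erythroid markers to 267 to 325 CPM at ZT20 and 268 to 372 CPM at ZT16 (Epb42 at 0). Adipocyte markers summed to 2025 to 3016 CPM at ZT20 and 1915 to 2529 CPM at ZT16. Of these 9 markers 5 were tested, with a median log2 fold change of -0.54 and 4 of 5 below 0, so the sum does not stand for the single markers. Of 12 pancreatic acinar markers, 9 were at 0 in all 8 libraries, among them Cpa1, Pnlip and Prss2, and of 8 gut epithelium markers 5 were at 0, among them Lct, Sis and Cdx2. The 13 transcripts of the mitochondrial genome had 0 called and a median log2 fold change of 0.21, or 0.04 without ZT20 replicate 1.

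The step lies within a daily cycle, and the 6 control times show where each gene stood in it. Of the 74 genes called higher, 35 had their highest mean of the day at ZT20, 24 at ZT0, 10 at ZT4 and 5 at ZT8, and 37 had their lowest mean at ZT12 and 32 at ZT16. Of the 37 called lower, 18 had their highest mean at ZT16, 8 at ZT12 and 11 at ZT8, and 17 had their lowest at ZT20, 12 at ZT0 and 6 at ZT4. Over all genes tested, the highest mean was at ZT0 in 16.3%, ZT4 in 10.4%, ZT8 in 22.2%, ZT12 in 19.2%, ZT16 in 13.5% and ZT20 in 18.4%. The called genes were chosen by the same ZT20 and ZT16 values that set these positions, which fixes part of the pattern, so the counts are a description. Arntl averaged 31.2 ± 4.82 CPM at ZT0, 18.0 ± 6.08 at ZT4, 1.49 ± 0.671 at ZT8, 1.752 ± 0.382 at ZT12, 10.3 ± 4.75 at ZT16 and 27.9 ± 2.98 at ZT20 (SD, n = 4 per time). Its lowest means were at ZT8 and ZT12, and its ZT20 mean was close to that of ZT0.

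Npas2 averaged 12.1 ± 2.38 CPM at ZT0, 4.69 ± 2.48 at ZT4, 0.332 ± 0.317 at ZT8, 0.0455 ± 0.0304 at ZT12, 0.058 ± 0.0469 at ZT16 and 3.30 ± 2.48 at ZT20. Its ZT12 and ZT16 means were both below the level that a count of 0 allows, and its ZT20 mean was below those of ZT0 and ZT4. Per2 averaged 9.05 ± 5.11 CPM at ZT0, 9.96 ± 4.77 at ZT4, 28.0 ± 12.8 at ZT8, 43.9 ± 6.42 at ZT12, 69.8 ± 6.09 at ZT16 and 22.8 ± 6.29 at ZT20, so that ZT16 was its highest sampled time. Dbp averaged 0.621 ± 0.192 CPM at ZT0, 10.3 ± 11.4 at ZT4, 145 ± 22.2 at ZT8, 72.7 ± 22.0 at ZT12, 16.7 ± 8.23 at ZT16 and 3.22 ± 0.802 at ZT20, with its highest mean at ZT8.

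Hspa8 averaged 893 ± 542 CPM at ZT0, 1028 ± 525 at ZT4, 903 ± 217 at ZT8, 1350 ± 203 at ZT12, 2343 ± 376 at ZT16 and 688 ± 178 at ZT20. Its ZT16 mean was the highest and its ZT20 mean the lowest of the day. Gys2 averaged 92.8 ± 3.68 CPM at ZT0, 108 ± 24.3 at ZT4, 325 ± 39.4 at ZT8, 328 ± 89.4 at ZT12, 307 ± 43.8 at ZT16 and 146 ± 37.4 at ZT20, with like means at ZT8, ZT12 and ZT16. Clpx averaged 397 ± 24.6 CPM at ZT0, 275 ± 39.0 at ZT4, 70.9 ± 28.2 at ZT8, 57.4 ± 14.5 at ZT12, 107 ± 20.1 at ZT16 and 320 ± 33.9 at ZT20, with its lowest mean at ZT12 and its highest at ZT0.

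**Figure D4:**
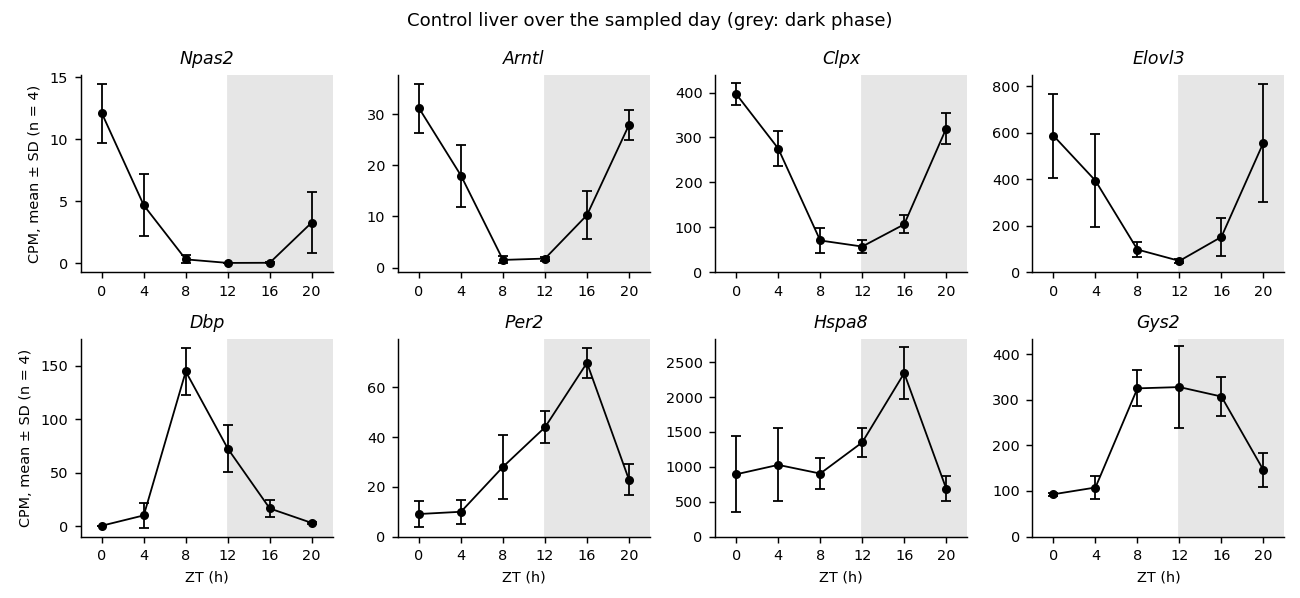
Mean CPM ± SD (n = 4 libraries per time) of 8 called genes at the 6 control times, with the dark phase in grey. Npas2, Arntl, Clpx and Elovl3 had their lowest means at ZT8 to ZT16 and higher means at ZT20 and ZT0, Per2 and Hspa8 had their highest mean at ZT16, and Dbp and Gys2 were already high at ZT8.

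The same step could be read in the phase shift arm, which shares no library with the control step, although both enter the same fit. There, 486 of the 14555 genes were called (3.34%), 337 higher at ZT20 (2.32%) and 149 lower (1.02%). Of the genes called in control, 54 were also called in the phase shift arm, all in the same direction, which is 48.6% of the 111 control calls and 11.1% of the 486 phase shift calls. The direction was the same for 107 of the 111 control calls, against 62.3% of all genes tested. The median log2 fold change of the 74 genes called higher was 0.81 in control and 0.53 in the phase shift arm, and that of the 37 called lower was -0.67 in control and -0.62 in the phase shift arm. Values in control are raised by the choice of genes there. Phase shift ZT20 replicate 2 stood apart from its group, with a chi-square averaged over genes of 102 to 110 against the other 3 libraries, which had 26.4 to 34.2 among themselves. Without it, 154 genes were called in the phase shift arm, of which 41 were control calls in the same direction (36.9% of the 111 and 26.6% of the 154), and 108 of the 111 had the same sign. The medians in the phase shift arm were then 0.59 for the genes called higher in control and -0.66 for those called lower. The phase shift count was 280 without phase shift ZT16 replicate 1.

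The test of the difference between the steps of the arms called 0 of 14555 genes in edgeR and 0 in DESeq2, with 854 genes at an unadjusted p under 0.05 in edgeR. It called 1 gene without phase shift ZT16 replicate 3. Foxo1 had the smallest adjusted p of this test, 0.332, with a log2 fold change of 0.57 in control and -0.38 in the phase shift arm and a difference of 0.95 (SE 0.20). Its phase shift libraries had 32.0, 29.6, 25.7 and 29.9 CPM at ZT20, against 34.3, 53.1, 28.3 and 36.7 CPM at ZT16. Foxo1 was 1 of 4 control calls with the opposite sign in the phase shift arm, and the other 3 were Wdr26, Setd2 and Nf1, which are named for that sign alone. Hspa8, with -1.77 in both arms, differed by 0.00 (SE 0.44), and Arntl, with 1.44 in control and 1.99 in the phase shift arm, differed by -0.55 (SE 0.40), and neither difference passed the test.

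Other clock genes had larger fitted steps in the phase shift arm without a difference that passed the test. Nr1d1 had a log2 fold change of -1.88 in control and -2.70 in the phase shift arm (difference 0.82, SE 0.72), and Ciart had -1.80 in control and -2.65 in the phase shift arm (difference 0.85, SE 0.69). Pck1 had 1.68 in control and -0.68 in the phase shift arm (difference 2.36, SE 0.61, adjusted p = 0.505). Medians of whole lists also stood apart in places: the 25 cholesterol synthesis genes had -0.03 in control and 0.83 in the phase shift arm, and the 21 cell cycle genes had -0.22 in control and 2.23 in the phase shift arm. Without phase shift ZT20 replicate 2, the phase shift median of the cell cycle genes was 0.09 and 0 of them were called, against 15 called with all libraries, and that of the cholesterol synthesis genes was 0.71 with 1 called, against 6. The difference between arms was not tested as a list.

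**Figure D5:**
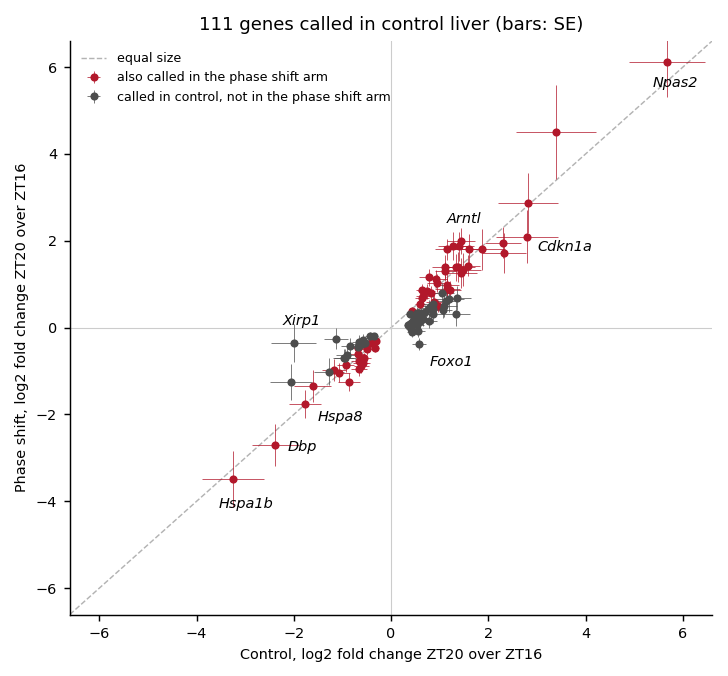
Log2 fold change, ZT20 over ZT16, of the 111 genes called in control, with the control step on the horizontal axis and the phase shift step on the vertical axis. Bars are standard errors, red points were also called in the phase shift arm (54 genes), and the dashed line marks equal steps. Foxo1 lies below 0 in the phase shift arm, and Xirp1 has a smaller fitted step there.

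RefSeq promoters of build GRCm38.p6, each from 250 bases before the start site to 50 after it, were found for 10566 of the 14555 genes tested, 58 of the 74 called higher and 29 of the 37 called lower. Motifs were searched on both strands, and none of the letter strings contains another. The RORE letters TAGGTCA stood in 3 of 58 promoters of genes called higher (5.17%), namely Arntl, Dyrk1b and Zkscan1, in 3 of 29 of those called lower (10.3%), and in 2.51% of the promoters of genes tested. The E-box CACGTG stood in 8 of 58 (13.8%), among them Elovl5 and Ppp1r3c, in 3 of 29 (10.3%), and in 11.5% of genes tested. The D-box TTATGTAA stood in 0 of 58, in 1 of 29 (3.45%), which was Per3, and in 0.71% of genes tested. CRE letters TGACGTCA stood in 1 of 58, Elovl5, in 1 of 29, Trak1, and in 3.41% of genes tested, and the CCAAT box in 30 of 58 (51.7%), 14 of 29 (48.3%) and 42.9% of genes tested. The heat shock element stood in 0 of 58, 0 of 29 and 0.577% of genes tested. Over all 32851 promoter windows, the share was 2.61% for the RORE, 7.15% for the E-box and 0.938% for the D-box. A match is a description of letters in this window.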

How the data were processed

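Liver RNA of 48 samples was sequenced, and 8 control libraries form the comparison. As deposited by the authors, 1 table gives whole-number counts of reads for every gene and another gives FPKM, in which those counts are scaled by gene length and library. Per the labels, mapping and quantification were done by a sequencing company, and per the submitters' processing notes the build was mm10. Aligner, counting program and strand setting were not given in the sources used here. Each FPKM equalled the count divided by gene length and by 1 factor per library, so FPKM entered as an alternative only.

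Counts were fitted with edgeR 4.0.16 in R 4.3.3 (filterByExpr over the 12 groups, TMM, quasi-likelihood with robust estimation, 1 mean per group, 48 libraries, 36 residual degrees of freedom). Contrasts were ZT20 minus ZT16 in control, in the phase shift arm, and their difference, each with Benjamini-Hochberg adjustment over 14555 genes and a threshold of 0.05. The pipeline was tested on simulated data. Fits without a library assume that the remaining ones share the spread of all groups. The libraries left out for a high mitochondrial share were those above 9.54%, which is 3 median absolute deviations above the median of all libraries. Alternatives used DESeq2 1.42.0, limma 3.58.1 (voom, and log2 of FPKM plus 0.1 or 1), other normalization and filters, fewer libraries, the mitochondrial share as a covariate, a replicate block, and each of 16 libraries left out.

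Named genes are the 12 higher and 12 lower called protein coding genes with the largest log2 fold change among those with an average log2 CPM of at least 1 and separate groups, all genes of the 3 clock lists, and up to 4 members of each other list by smallest p, kept where the unadjusted p was under 0.05. The difference between arms had no called gene to name. The rule gave 131 genes, and 18 more were chosen after their values were seen. Serum metabolites were not analysed here, and some genes named by the rule are not reported here. The comparison, the lists and the rule were chosen with earlier results of these data known. Depth was 16463189 to 17484910 counts per library, and pairs of replicates gave a chi-square of 14.7 to 84.7 averaged over genes, above counting noise.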

Additional observations from a re-analysis of the deposited data

Results flagged for a closer look

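In groups of 4 libraries, values were marked where the highest or lowest library lay apart from the other 3 by a gap above Dixon's critical value. Chance marks about 1 in 20 groups, and 27 of 326 groups were marked among the named genes, the mitochondrial share and the marker sums, of which 8 were ZT16 replicate 4, 5 were ZT20 replicate 1 and 5 were ZT20 replicate 4. In ZT20, replicate 4 was the highest for Cdkn1a (36.8 CPM, others 3.27 to 6.78), Loxl4 (19.5 CPM, others 2.52 to 4.68) and Eif4a1 (243 CPM), a translation factor, and the lowest for Foxo1 (30.3 CPM, others 40.8 to 41.8) and Cpeb4 (58.4 CPM). ZT20 replicate 1 was the highest for the mitochondrial share (12.14%, others 7.05% to 7.20%), mt-Nd5 (13100 CPM, others 5417 to 5905), Dnaja1 (291 CPM) and the AMP kinase subunit gene Prkaa1 (19.6 CPM), and the lowest for the alanine aminotransferase gene Gpt (256 CPM).

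ZT20 replicate 3 was the highest for Egr1 (66.3 CPM, others 8.63 to 18.3), the coactivator gene Ppargc1a (15.6 CPM) and the lysosomal glucosidase gene Gaa (112 CPM), and ZT20 replicate 2 for Rbm3 (19.3 CPM). In ZT16, replicate 4 was the highest for Ppp1r3c (85.7 CPM, others 42.1 to 47.6), Junb (12.8 CPM), Lamp2 (718 CPM), F9 (231 CPM), the stellate cell and fibroblast marker sum (458 CPM) and the adipocyte marker sum (2530 CPM), and the lowest for Gys2 (242 CPM, others 325 to 334) and Eif6 (47.9 CPM). ZT16 replicate 1 was the highest for Zbtb16 (9.25 CPM) and Stat5b (64.5 CPM) and the lowest for Idh3a (39.8 CPM), ZT16 replicate 2 was the highest for Gaa (85.1 CPM), and ZT16 replicate 3 was the lowest for Sgms2 (28.7 CPM).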

How the results depend on the processing

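No value of a called gene changed sign under any alternative run, and of 4171 values of named genes 3786 kept their side of the threshold, 274 lost it and 111 gained it. These values include named genes that were not called, which have no call to lose. Of the 111 called genes, 20 stayed called in all 8 fits without a control library. Against 111 calls in control (74 higher, 37 lower), there were 57 (38 and 19) with no filter on low counts, 341 (213 and 128) with the 8 libraries alone, 184 (108 and 76) after leaving out libraries of high mitochondrial share, 825 (508 and 317) with that share as a covariate and 266 (165 and 101) in DESeq2. With the 24 control libraries alone, 23 genes were called lower. Leaving out 1 of 16 libraries gave 26 to 145 calls, with 15 to 99 higher and 11 to 46 lower. In the phase shift arm, 486 calls became 275 with its 8 libraries alone, 948 after leaving out those of high mitochondrial share, 761 with the covariate and 154 to 494 with 1 library left out. The difference between arms had 0 calls, and 0 to 1 with 1 library left out. The causes were not tested. A replicate block gave 106 calls in control (71 higher, 35 lower), 429 in the phase shift arm and 0 for the difference. Same-numbered libraries did not deviate together (correlations of -0.06 to -0.01, against -0.02 to 0.06 for different numbers). With so few libraries per time these correlations cannot show whether the numbers mark a shared batch, and no pairing was used. Median log2 fold changes of lists moved by more than the SD between libraries of a group in 27 of 1343 values. Genes near the level that 3 counts give, about 0.17 CPM before the TMM factor, are limited by depth.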

Other observations

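Among the other called genes, 18 were chosen after their values were seen, for what they are known to do. Insig2, which retains SREBP in the endoplasmic reticulum, had 318, 264, 232 and 230 CPM at ZT20, against 95.8, 131, 95.4 and 126 CPM at ZT16, with a log2 fold change of 1.22 (SE 0.22, adjusted p = 0.00397 in edgeR's quasi-likelihood test). Its paralog Insig1 had the value of -0.76 given above. Tab2, an adaptor of the TAK1 kinase, had 102, 102, 85.1 and 73.1 CPM at ZT20, against 43.5, 45.0, 46.2 and 49.7 CPM at ZT16, with a log2 fold change of 0.97 (SE 0.14, adjusted p = 0.000206). Cpeb4 and Cpeb2, proteins that bind polyadenylation elements of messenger RNA, rose by 1.07 (SE 0.18, adjusted p = 0.00121) and 1.33 (SE 0.29, adjusted p = 0.0157) on the log2 scale. The long noncoding RNA Gm36041 had 2.72, 4.58, 2.58 and 4.18 CPM at ZT20, against 0.575, 0.389, 0.692 and 1.19 CPM at ZT16, or 234 summed counts against 49. Insig2, Tab2, Cpeb4, Gm36041, Agtr1a (0.88, the angiotensin receptor) and Stom (0.60) were kept in all 8 fits without a library.

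Genes of mitochondria and organelles were among these. Crot, the peroxisomal carnitine octanoyltransferase, had 523, 741, 602 and 468 CPM at ZT20, against 270, 251, 284 and 258 CPM at ZT16, with a log2 fold change of 1.13 (SE 0.26, adjusted p = 0.0199). Coq8a, needed for coenzyme Q synthesis, had a log2 fold change of 0.93 (adjusted p = 0.0244), Mcu, the mitochondrial calcium channel, 0.73 (adjusted p = 0.0257), Slc44a1, a choline transporter, 0.64 (adjusted p = 0.00858), and Vdac2, a channel of the outer mitochondrial membrane, -0.32 (adjusted p = 0.043). On the lower side, Nrg4, a growth factor of the EGF family, had -0.87 (adjusted p = 0.043), Nadsyn1, the NAD synthetase, -0.60 (adjusted p = 0.00858), Jmjd6 -0.68 (adjusted p = 0.0199), and Acot11, an acyl-CoA thioesterase, -1.13 (adjusted p = 0.0157) with overlapping groups. On the other strand, Nrg4 (mean 7.27 CPM) overlaps Fbxo22 (49.3 CPM) and Jmjd6 (13.7 CPM) overlaps Mettl23 (15.8 CPM). Reads counted without strand could not be assigned between them. Btg1 and Bclaf1 had 1.05 (adjusted p = 0.0257) and 0.60 (adjusted p = 0.0157). In the fits without a library, the number kept was 7 of 8 for Nadsyn1, 6 for Slc44a1 and Bclaf1, 4 for Cpeb2 and Acot11, 3 for Crot, Coq8a, Mcu and Jmjd6, 2 for Btg1 and 1 for Nrg4 and Vdac2, with a highest adjusted p of 0.0678 for Nadsyn1 and 0.207 for Nrg4.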
